A study of Caenorhabditis elegans with 8 samples.

Results

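The transcript abundance of untreated adult hermaphrodite nematodes was described from the control libraries alone, which are 4 of the 8 RNA-seq libraries of a study of urolithin A (UA) in *Caenorhabditis elegans*. The controls were taken by their label as untreated, and the 4 libraries of UA-treated animals were not used. Each control library came from a separate population of age-synchronized wild-type N2 animals, grown at 20 °C on plates seeded with OP50 bacteria and homogenized whole. By the study's methods the animals were collected on day 1 of adulthood, but the deposited design text has the experiment end on day 4, after a start at L4, the last larval stage. No group of a second age, genotype or tissue is among these 4 libraries, so all values below are descriptions of a single group and no test was made.

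Between 42464914 and 43055719 fragments were counted on genes in each library. Of 46928 genes in the table, 20863 had at least 1 fragment in a control library and 26065 had none. Counts were converted to TPM, the usual measure of transcript abundance, in which each count is divided by the gene's summed exon length and each library is scaled to a sum of 1000000, so that levels of different genes can be compared per length. Since the sum is fixed, a larger share for 1 family leaves a smaller share for the rest. No library was a copy of another, since a chi-square of their counts, divided by its degrees of freedom, ran from 8.21 for replicates 1 and 2 to 53.5 for replicates 2 and 3. It was 18.05 for replicates 3 and 4. The whole animal is measured here, so fewer cells of a type and less RNA per cell cannot be told apart in any of these values.

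An adult *C. elegans* hermaphrodite first makes sperm as a larva and then switches its germline to oocytes, which it fertilizes with the stored sperm. The intestine makes yolk proteins, the vitellogenins, and secretes them into the body cavity, and growing oocytes take them up through a receptor. Oocytes in turn carry maternal mRNAs that direct the first divisions of the embryo, and they hold the materials of the eggshell. The cuticle is built of collagens that are made anew at each larval molt, with some of them used only in particular stages. Genes of these kinds were therefore grouped in lists, and each list was ranked by the median TPM of its members.

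The pool of mRNA was held by few genes. A mean TPM of at least 1 was reached by 11242 genes, and these genes are the expressed genes in what follows. These included 10776 of 19982 protein-coding genes, or 53.9%. A TPM of at least 10 was reached by 6945 genes, of at least 100 by 1998 genes and of at least 1000 by 158 genes. The 10 most abundant genes held 5.65% ± 0.466 of TPM (SD, n = 4), with 5.28%, 5.30%, 6.09% and 6.11% in replicates 1 to 4. They thus held a slightly larger share in replicates 3 and 4 than in replicates 1 and 2. The 100 most abundant held 28.9%, and 50% of TPM was held by 409 genes. In single libraries, 438, 453, 345 and 393 genes held that share, so replicate 3 had the most concentrated pool. Protein-coding genes held from 99.4% to 99.5% of TPM in every library. Without the division by length, as CPM, counts scaled by the library total alone, 661 genes held 50% of the pool and the top 10 held 9.58%, so the degree of concentration depends on the scale.

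**Figure D1:**
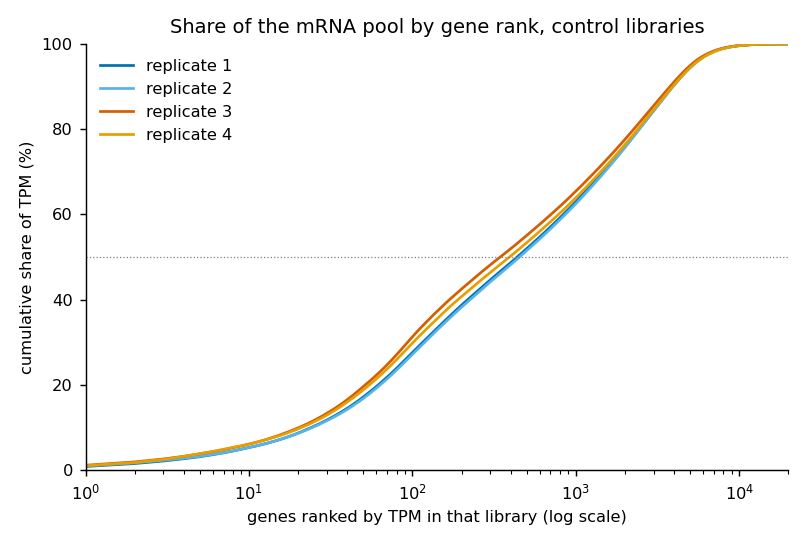
Cumulative share of TPM (%, vertical axis) against the number of genes, ranked by TPM in each library (horizontal axis, log scale), with a line for each of the 4 control libraries and a dotted line at 50%. The line of replicate 3 crosses 50% at 345 genes and that of replicate 2 at 453 genes.

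The most abundant transcript per length was *eef-1A.1*, which encodes the translation elongation factor that brings aminoacyl-tRNA to the ribosome (chrIII:6970026-6971712, minus strand, WBcel235). It had 8503, 9712, 11363 and 10422 TPM in replicates 1 to 4 and was first in every library. Its paralog *eef-1A.2* averaged 261 TPM, and the ratio of the pair was 38.5 ± 3.06 (SD, n = 4). Next came *sip-1* (chrIII:10506106-10506801, minus strand), a small heat shock protein known from oocytes and embryos, with 6943, 7507, 7955 and 7544 TPM. The levels of *sip-1* lay close together, within 6943 and 7955 TPM. The yolk gene *vit-6* came next by TPM, although by counts it was first in each library, where it took from 1.72% to 2.65% of all fragments. The exons of *vit-6* sum to 5064 bases, against 640 bases for *sip-1*, and only the division by length puts it below *eef-1A.1* and *sip-1*.

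The rest of the first 10 were *far-2*, *vit-5*, *vit-2*, Y82E9BR.3, *rps-25*, *cpg-2* and *cyn-7*. The fatty acid and retinol binding protein gene *far-2* (chrIII:9081828-9082511) had 5983, 5884, 4598 and 5458 TPM, with replicate 3 the lowest. Y82E9BR.3, which the gene table names by its locus only, had 4780, 4704, 4947 and 4630 TPM, with little spread between libraries. The gene of the eggshell chondroitin proteoglycan *cpg-2* (chrIII:7102092-7103990) had 4193, 4137, 3503 and 3513 TPM, higher in replicates 1 and 2 than in replicates 3 and 4. The cyclophilin gene *cyn-7* averaged 3653 ± 219.6 TPM (SD, n = 4). Of the other genes of the first 30, all but *ndk-1*, *cey-2* and *ant-1.1* encode ribosomal proteins. *ndk-1*, a nucleoside diphosphate kinase gene, averaged 3360 TPM, *cey-2*, a gene of a germline Y-box RNA-binding protein, 3336 TPM, and *ant-1.1*, of the mitochondrial ADP/ATP carrier, 3300 ± 50.3 TPM (SD, n = 4).

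Of the 100 most abundant genes, 92 were among the first 100 in every library, and 8 of the first 10 were among the first 10 in every library. Ribosomal proteins made up 73 of the 100. There were 5 genes of the oocyte and eggshell list, 3 vitellogenins, 3 translation factors, 2 abundant chaperones, *sip-1*, the C-type lectin *clec-87* and the mitochondrial *COX3*. The other 11 were in none of the lists, and 3 of all 100 are named by locus only. The top 100 were short, with a median of 640 bases against 1351.5 bases for all expressed genes. No gene of the muscle, gut digestion, neuron, collagen or sperm lists was among them.

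Grouped by the letters of their names, the families with the largest shares were *rpl* with 11.19% of TPM, *rps* with 7.73%, *vit* with 1.75% and *eef* with 1.63%. They were followed by *rplp* with 0.943%, the *cpg* proteoglycans with 0.826%, *sip* with 0.749%, *far* with 0.697%, *col* with 0.690% and *clec* with 0.675%. The aspartic proteases *asp* held 0.608%, the Y-box proteins *cey* 0.596%, *hsp* 0.583%, the cyclophilins *cyn* 0.569% and *perm*, genes of the eggshell permeability barrier, 0.463%. These 15 families together held 29.7% of TPM. Genes named only by their locus were many and mostly low. There were 8704 of them among the protein-coding genes, 3904 were expressed, and they held 17.3% of TPM.

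**Figure D2:**
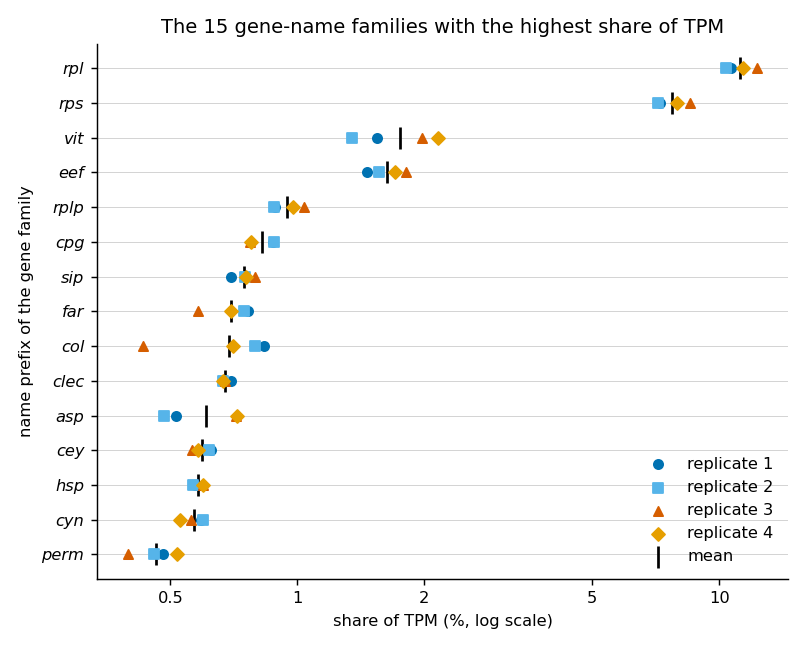
Share of TPM (%, horizontal axis, log scale) of the 15 gene-name families with the largest mean share, with a point for each of the 4 control libraries and a vertical tick at the mean. The *rpl* family held 11.19% and the *rps* family 7.73%, and the *col* family lay lowest in replicate 3, at 0.431%.

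Ribosomal protein genes thus formed the largest of these groups, though most of TPM lay outside them. The 80 genes of the list of cytosolic ribosomal proteins held 19.5% ± 1.54 of TPM (SD, n = 4), with 18.4%, 18.1%, 21.4% and 19.9% in replicates 1 to 4. With the 5 *rplp* and *rpsa* genes, which the name pattern had missed, the share was 20.7%. A ribosome holds its proteins mostly in equal numbers, and the mRNA levels of most members lay close to each other. Of the 80, 75 had at least 1000 TPM. The members below that cut were left out of the span. Those above it ranged from 1204 TPM for *rps-28* to 4611 TPM for *rps-25* (chrIV:5947093-5947605, minus strand), a span of 3.83-fold. The second was *rpl-17* with 3319, 3228, 4047 and 3795 TPM, and *rps-23* followed with 3437, 3243, 3957 and 3691 TPM. Both were highest in replicate 3, as were 59 of the 79 expressed members, where 13.3% of all expressed genes had their highest value in replicate 3. None of the 79 had its lowest value there, against 43.1% of all expressed genes.

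The 5 ribosomal genes under 1000 TPM were *rpl-23A.1*, *rpl-11.2*, *rpl-41.1*, *rpl-37.2* and *rpl-42*, which were named after their values were seen. The first 4 carry the suffix of a gene pair. *rpl-11.1* was 5.73 ± 0.827 times as high as *rpl-11.2* (SD, n = 4) and was the higher in 4 of 4 libraries. *rpl-42* had a mean of 0.0215 TPM. How the authors' counting treated reads that fit more than 1 gene is not given in the sources used here, so the split between near-identical copies is uncertain for these pairs and for the actin, vitellogenin, histone and sperm protein families below. Ribosomal genes are short and their share depends on the scale. It was 8.51% as CPM and 24.7% when 200 bases, an assumed fragment length, were taken off each gene length.

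Translation factors had a median of 1383 TPM. Beside *eef-1A.1*, *eef-2*, the translocation factor, had 2082, 1979, 2292 and 2272 TPM, and *eef-1G*, a subunit of the exchange factor, had 1827, 1806, 2027 and 2055 TPM. Both were higher in replicates 3 and 4. The germline isoform of the initiation factor eIF5A, *iff-1*, averaged 981 TPM and its somatic paralog *iff-2* 294 TPM, a ratio of 3.39 ± 0.543 (SD, n = 4). The abundant chaperones had a median of 317 TPM, led by *hsp-90* with 2073 ± 54.8 TPM and *hsp-1*, the constitutive HSP70, with 2066 ± 174 TPM (SD, n = 4), and then by *hsp-6*, the mitochondrial HSP70, with 357 ± 30.6 TPM.

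Yolk genes split into an abundant and a lower group. The 6 vitellogenins, which the intestine expresses, had a median of 2840 TPM, the first of all lists, and together held 1.75% ± 0.374 of TPM (SD, n = 4), with 1.54%, 1.35%, 1.98% and 2.15% in replicates 1 to 4. The ranges of this median over libraries, 2184 to 3325 TPM, and of the ribosomal median, 2338 to 2609 TPM, overlapped, and vitellogenin was the higher in 3 of 4 libraries. The vitellogenin median is a midpoint between the 3 highest genes and the 3 lowest, and no member was near it. As CPM, with no division by length (the median of the family is 4935 bases), the 6 genes took 6.47% of the pool.

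*vit-6* (chrIV:8261157-8266459) had 5259, 4520, 6826 and 7210 TPM. *vit-5* (chrX:3403471-3408603) had 4482, 4016, 6231 and 7103 TPM, and *vit-2* (chrX:5101042-5106169) had 4743, 4223, 5871 and 6140 TPM. All 3 were lowest in replicate 2 and highest in replicate 4, and they held 94.9% of the vitellogenin TPM. The other 3 were lower by an order of magnitude or more. *vit-4* had 457, 352, 426 and 510 TPM, *vit-3* had 308, 249, 275 and 352 TPM, and *vit-1* had 167, 115, 155 and 208 TPM. These too were lowest in replicate 2 and highest in replicate 4, so all 6 shared their lowest and their highest library. They differed in the other libraries, since replicate 3 was above replicate 1 for *vit-6*, *vit-5* and *vit-2* and below it for *vit-4*, *vit-3* and *vit-1*. Of all expressed genes, 15.3% were lowest in replicate 2 and 30.4% highest in replicate 4. *vit-5* was 34.0 ± 5.48 times as high as *vit-1* and *vit-4* was 1.47 ± 0.0591 times as high as *vit-3* (SD, n = 4).

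Oocyte genes followed. All 28 genes of the oocyte and eggshell list had at least 100 TPM, 11 had at least 1000 TPM, and the median was 742 TPM, which is above 98.2% of all expressed genes. The median was 785, 795, 678 and 709 TPM in replicates 1 to 4, and the list held 2.89% ± 0.173 of TPM (SD, n = 4). After *cpg-2* came *cey-2* with 3517, 3490, 3124 and 3214 TPM and the proteoglycan gene *cpg-1* with 2418, 2461, 2371 and 2390 TPM. Replicate 3 had the lowest value for 19 of the 28 members, or 67.9%, against 43.1% of all expressed genes.

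Eggshell genes covered a wide range. The permeability barrier genes *perm-2* and *perm-4* averaged 2234 ± 289 and 1972 ± 217 TPM, *cpg-3* 1508 ± 114 TPM and *cbd-1*, a chitin-binding eggshell protein, 1046 ± 16.45 TPM (SD, n = 4). The chitin synthase gene *chs-1* was lower, at 249 ± 12.97 TPM, as were *egg-3* at 234 ± 16.7 TPM and *gna-2*, which makes a chitin precursor, at 222 ± 16.107 TPM. Maternal regulators of translation spanned the range, from *pos-1* at 1535 ± 146 TPM, *spn-4* at 1149 ± 84.7 TPM and the Pumilio-family gene *puf-5* at 1110.5 ± 103 TPM to *pie-1*, which guards the germ lineage of the embryo, at 200 ± 15.4 TPM and *lin-41* at 168 ± 3.34 TPM. The yolk receptor gene *rme-2* averaged 744 ± 41.9 TPM. Ratios of paralogs varied little between libraries, with *egg-1* 2.02 ± 0.0292 times *egg-2* (receptors of the oocyte surface needed for sperm entry), *oma-2* 2.26 ± 0.152 times *oma-1* (oocyte maturation) and *mex-5* 1.53 ± 0.0841 times *mex-6* (embryo polarity), each higher in 4 of 4 libraries.

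The list of germline and meiosis genes lay lower, with a median of 98.6 TPM. All 40 members had at least 10 TPM and 20 had at least 100 TPM. Its share of 0.807% ± 0.0124 of TPM (SD, n = 4) had the smallest relative spread of all 29 lists, a coefficient of variation (CV) of 1.54%. The leading members were RNA regulators. *car-1*, an RNA-binding protein of germ granules, had 1377, 1396, 1536 and 1517 TPM, *cgh-1*, a DEAD-box helicase, had 1265, 1312, 1431 and 1385 TPM, and *gld-1*, a translational repressor of the meiotic germline, had 781, 778, 796 and 820 TPM. All 3 were somewhat higher in replicates 3 and 4. Argonautes of the germline followed, *wago-1* with 467 ± 17.4 TPM and *hrde-1* with 350 ± 10.9 TPM, and the P-granule gene *pgl-1* had 332 ± 13.1 TPM (SD, n = 4).

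Genes of the meiotic chromosome were lower than these. The axis protein gene *him-3* averaged 168 ± 15.2 TPM, *htp-3* 106 ± 2.11 TPM, the synaptonemal complex genes *syp-4* 118.7 ± 11.7 TPM and *syp-1* 32.5 ± 3.17 TPM, and *spo-11*, which makes the meiotic double-strand breaks, 51.95 ± 5.73 TPM (SD, n = 4). The lowest of the list were *fbf-1* and *fbf-2*, regulators of germline stem cells, at 25.2 ± 2.34 and 13.7 ± 0.454 TPM, with *coh-4* and *msh-5* between them. Summed over the lists, oocyte and eggshell genes had 3.58 ± 0.240 times the TPM of germline and meiosis genes (SD, n = 4), with 3.82, 3.73, 3.31 and 3.46 in replicates 1 to 4.

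**Figure D3:**
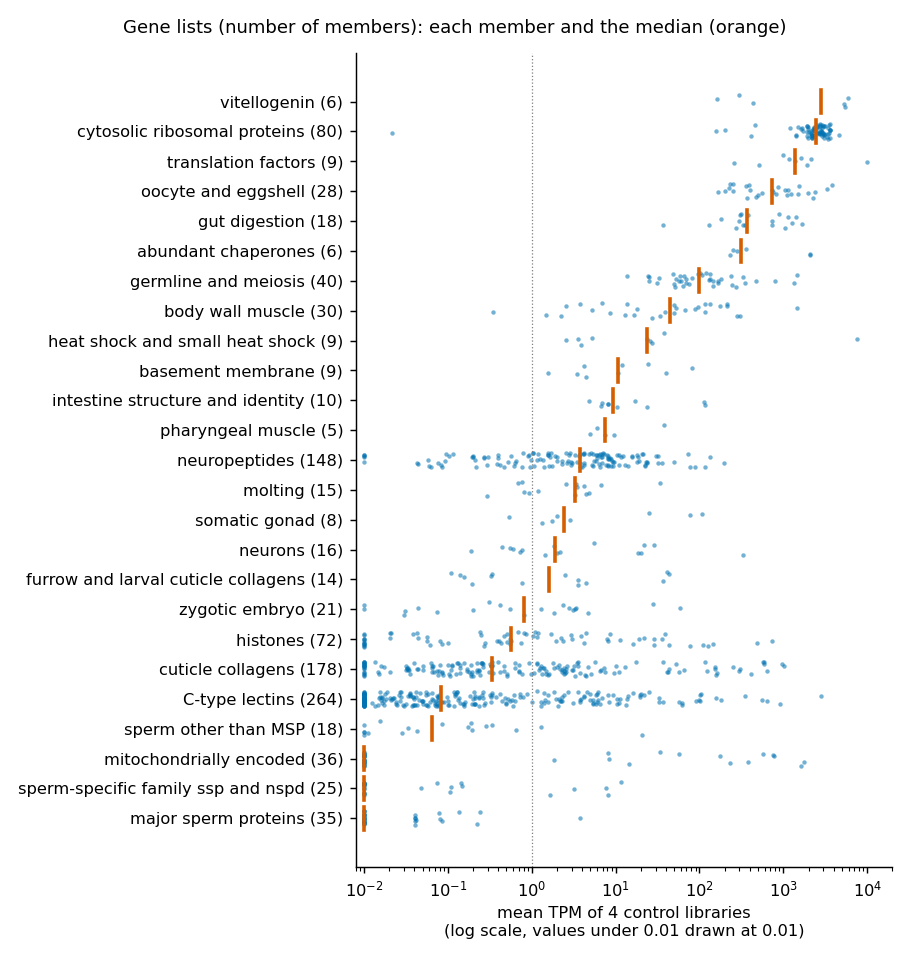
Mean TPM over the 4 control libraries (horizontal axis, log scale, values under 0.01 drawn at 0.01) of each member of the 25 lists with at least 5 members (points), with the list median (orange bar), the number of members in parentheses and a dotted line at 1 TPM. Medians run from 2840 TPM for vitellogenin to 0 for the major sperm proteins, and most lists near the bottom hold a few members far above their median.

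Transcripts of the listed zygotic genes of the embryo were scarce beside those of the oocyte and eggshell list. The 21 early zygotic genes, mainly transcription factors that set lineages of the embryo, had a median of 0.814 TPM, with 0.642, 1.30, 0.898 and 0.581 TPM in replicates 1 to 4. Of these genes, 10 reached 1 TPM. The T-box gene *tbx-9* had 63.8, 63.2, 55.8 and 53.0 TPM and *die-1*, a zinc finger gene of embryonic morphogenesis, 27.6, 28.9, 28.7 and 28.0 TPM. No other member exceeded the 4.72 TPM of *pes-1*, and the other 19 summed to 25.2 ± 3.63 TPM (SD, n = 4). The endoderm gene *end-3* had 0.616, 1.30, 0.898 and 0.449 TPM, on 17, 36, 25 and 12 fragments, and *end-1* averaged 0.307 TPM. *ceh-51*, *vab-7* and *cnd-1* averaged 0.555, 0.424 and 0.202 TPM. *hlh-25*, *tbx-35*, *med-2* and *hlh-27* had at most 4 fragments in any library, and *hlh-26* and *med-1* had none. For the last 2 genes a count of 0 allows up to 3 fragments a library, which is a TPM of up to 0.118 to 0.185. Such limits cover counting error only. The summed TPM of the oocyte and eggshell list was 257 ± 14.3 times that of the zygotic list. *tbx-9* gave 52.4% and *die-1* 25.2% of the zygotic sum. These lists do not measure all zygotic or all maternal transcripts.

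Sperm transcripts were scarce. The major sperm proteins (MSP), the cytoskeletal proteins of nematode sperm and the signal for oocyte maturation, are encoded by a large family. The 35 genes of that name used here include some not annotated as protein-coding. Of all 35, 22 had no fragment in any of the 4 libraries, where 3 fragments would be from 0.243 to 0.537 TPM. *msp-31* alone reached 1 TPM. It had 4.32, 4.21, 2.83 and 3.80 TPM on 53, 52, 35 and 45 fragments. The whole family summed to 4.88 TPM, on 45 to 67 fragments a library, and *msp-31* gave 77.7% of that sum. *msp-52* and *msp-33* were next, at 0.240 and 0.225 TPM. MSP copies are nearly identical, so reads that fit several of them may be missing from these counts, depending on the counting.

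The 18 other sperm genes, which are not copies of MSP, were mostly low. Their median was 0.0640 TPM and 2 of them reached 1 TPM. *spe-44*, a regulator that turns on sperm genes in the germline, had 20.6, 21.4, 19.5 and 21.3 TPM, and *spe-41*, a sperm calcium channel, had 0.792, 1.004, 1.36 and 2.03 TPM. The other members averaged less than 1 TPM, with *spe-26* at 0.656 TPM, *spe-9*, a sperm surface protein needed for fertilization, at 0.334 TPM and *fer-1*, of membranous organelle fusion, at 0.288 TPM. *spe-11*, *msd-4* and *snf-10* averaged 0.193, 0.191 and 0.173 TPM. *spe-38*, *gsp-3*, *spe-10*, *gsp-4*, *spe-42* and *comp-1* had at most 4 fragments in any library, and *msd-1*, *msd-2* and *msd-3* had none, which allows up to 0.294 TPM. In the *ssp* and *nspd* families of sperm-specific names, 5 of 25 genes reached 1 TPM, led by *ssp-37* at 11.6 TPM, *ssp-10* at 8.05 TPM and *nspd-7* at 7.69 TPM, and 14 had no fragment. The summed TPM of the oocyte and eggshell list was 1201 ± 70.4 times that of the 18 sperm genes (SD, n = 4). *spe-44* gave 86.1% of the TPM of those 18 genes, so this ratio mostly sets the oocyte list against that gene.

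The labels name no sex, and N2 cultures are mainly hermaphrodites. Male markers were low as well. *try-5*, a protease of male seminal fluid, had 1.09, 0.902, 0.931 and 0.626 TPM. *pkd-2* and *lov-1*, the polycystins of male sensory neurons, had 2 fragments in replicate 1 and, for *lov-1*, 2 in replicate 4, with none in the other libraries.

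**Figure D4:**
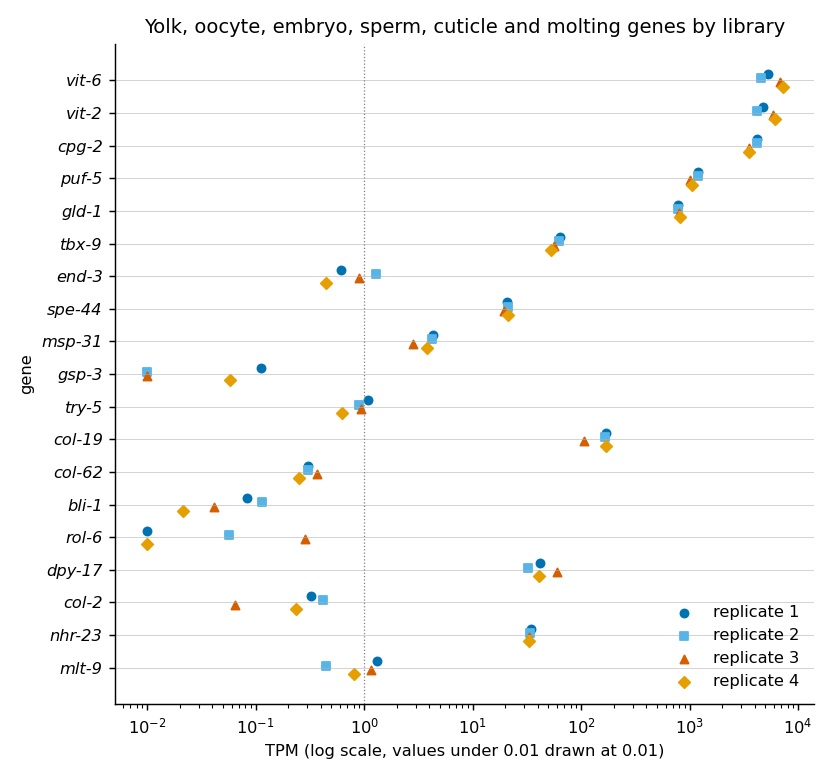
TPM (horizontal axis, log scale, values under 0.01 drawn at 0.01, dotted line at 1 TPM) in each of the 4 control libraries of 19 genes drawn from the yolk, oocyte, germline, embryo, sperm, male, cuticle and molting lists. *vit-6* and *cpg-2* lie between 3503 and 7210 TPM, *col-19* between 107 and 171 TPM, and *gsp-3*, *bli-1*, *rol-6* and *col-2* below 1 TPM.

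The cuticle collagens were a large and uneven family. Of 178 genes, 72 were expressed, where 53.9% of all protein-coding genes were. The median was 0.333 TPM, but the family held 0.704% ± 0.178 of TPM (SD, n = 4). Its share was 0.847%, 0.804%, 0.450% and 0.715% in replicates 1 to 4. The 16 genes of at least 100 TPM held 92.2% of the family, and the 106 genes under 1 TPM held 0.267%. *col-122* led with 1282, 1184, 601 and 1006 TPM. *col-119* had 1070, 1028, 649 and 1077 TPM and *col-181* had 802, 791, 345 and 595 TPM. Replicate 3 was lowest for each of them.

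Collagens known from particular stages were not alike. Of the adult collagens, *col-19* had 171, 165, 107 and 169 TPM, whereas *col-62* had 0.306, 0.304, 0.364 and 0.253 TPM and *col-7* had 0.0599, 0.0793, 0.158 and 0 TPM. Of the collagens made in L4 animals for the adult cuticle, *bli-2* and *bli-1*, which form its struts, averaged 0.0872 and 0.0649 TPM and *rol-6* averaged 0.0856 TPM, on 5 to 16 fragments a library for the 3 together. The dauer collagens *col-2* and *col-40* averaged 0.260 and 0.0445 TPM. Of the 14 furrow and larval collagens, 7 were expressed. *dpy-17* had 42.2, 32.2, 59.3 and 40.8 TPM, *sqt-3* had 44.9, 31.4, 56.04 and 33.9 TPM, and *dpy-14* had 36.2, 27.8, 51.5 and 29.6 TPM. All 7 expressed members were highest in replicate 3, against 13.3% of all expressed genes. The 3 leading *col* genes above were lowest in that library. So were 40.3% of the 72 expressed collagens, near the 43.1% of all expressed genes. The furrow and larval collagens under 1 TPM were *dpy-9*, *dpy-13*, *rol-8*, *sqt-1*, *dpy-8*, *dpy-4* and *dpy-5*. Of these, *sqt-1* had 2, 0, 24 and 0 fragments and *dpy-5* had 0, 0, 12 and 0 fragments, with almost all of them in replicate 3.

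Genes of the larval molt had a median of 3.31 TPM. *nhr-23*, a nuclear receptor that drives molting genes, stood apart with 34.5, 33.9, 33.0 and 33.2 TPM. *noah-2*, a component of the apical extracellular matrix, had 7.59, 5.18, 8.26 and 5.63 TPM, and *mlt-7*, a cuticle peroxidase, 5.17, 5.83, 2.69 and 5.60 TPM. The other 12 of 15 genes averaged at most 4.39 TPM, and *mlt-9*, *qua-1*, *fbn-1*, *nas-36* and *bli-5* averaged 0.932, 0.800, 0.756, 0.688 and 0.295 TPM. This median was 5.77 as CPM and 2.48 with 200 bases taken off each length.

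Set side by side, the stage lists thus had 2840 TPM for yolk, 742 TPM for oocytes and the eggshell, 98.6 TPM for the germline, 3.31 TPM for molting, 0.814 TPM for the zygotic embryo and 0.0640 TPM for sperm other than MSP, as medians. The order of oocyte over germline over molting over zygotic medians held in 12 of 12 alternative settings. Most of these settings change all 4 medians by similar factors, so they could hardly have reordered medians this far apart. No other age was among the libraries, and whether the levels fit day 1 or day 4 of adulthood was not tested.

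Genes of the gut digestion list were abundant. The 18 genes of gut digestion had a median of 365 TPM, all had at least 10 TPM, and they held 1.15% ± 0.209 of TPM (SD, n = 4), with 1.001%, 0.939%, 1.33% and 1.33% in replicates 1 to 4. The aspartic protease gene *asp-6* had 1497, 1392, 1907 and 1936 TPM, the cathepsin B-like gene *cpr-1* had 1006, 907, 1956 and 1796 TPM, and *asp-1* had 939, 858, 1653 and 1568 TPM. All 3 were higher in replicates 3 and 4, as were *vit-6*, *vit-5* and *vit-2*, and the ratio of vitellogenin to gut digestion TPM was steadier than either, at 1.54, 1.44, 1.49 and 1.62. The lysozyme gene *lys-7* went the other way, with 934, 958, 854 and 837 TPM. Genes of gut structure and identity were far lower, with a median of 9.26 TPM, below the 21.7 TPM median of all expressed genes. *erm-1*, of the apical membrane, had 115, 114, 117 and 126 TPM, *act-5*, the actin of the microvilli, had 87.4, 77.0, 144 and 139 TPM, and the esterase gene *ges-1* had 24.3, 24.6, 23.6 and 22.9 TPM. The gut transcription factor gene *elt-2* averaged 4.77 ± 0.898 TPM (SD, n = 4).

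Body wall muscle genes had a median of 44.2 TPM, and 29 of 30 were expressed. They held 0.361% ± 0.0332 of TPM (SD, n = 4). Of this sum, 54.4% came from the 4 actin genes, and 40.4% from *act-2*, an actin that is also used outside muscle, with 1493, 1458, 1516 and 1374 TPM. The ratio of *act-2* to *act-1* was 8.35 ± 0.643. The troponin C gene *pat-10* had 371, 364, 211 and 283 TPM and the myosin light chain gene *mlc-2* had 318, 327, 213 and 262 TPM. Without the actin genes, the list summed to 1887, 1871, 1193 and 1646 TPM, lowest in replicate 3. Of the 29 expressed members of the whole list, 22 had their lowest value there, or 75.9%, against 43.1% of all expressed genes.

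The large filament proteins were low per length. *unc-54*, the major myosin heavy chain of body wall muscle, had 58.9, 57.6, 26.4 and 54.9 TPM, and *myo-3*, the other heavy chain of the thick filament, had 6.62, 5.67, 3.08 and 5.55 TPM, a ratio of 9.38 ± 0.763 (SD, n = 4). Replicate 3 had less than 50% of the level of the other libraries for *unc-54*. The titin gene *ttn-1*, with 56040 bases of exons, averaged 0.344 TPM on 454 to 774 fragments a library. In the pharynx, whose muscle list had a median of 7.55 TPM, *tni-4*, *tnc-2* and *tnt-4*, genes of the troponin complex, averaged 37.8 ± 3.66, 9.55 ± 1.12 and 7.55 ± 1.31 TPM (SD, n = 4). Summed over lists, germline and meiosis genes had 2.25 ± 0.229 times, and oocyte and eggshell genes 8.01 ± 0.272 times, the TPM of body wall muscle. The lists hold 40, 28 and 30 genes. Actin genes gave 54.4% of the muscle sum, which was 3615 TPM with them and 1649 ± 323 TPM without (SD, n = 4). Both ratios would be larger without the actin genes.

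The basement membrane genes had a median of 10.8 TPM, with *ost-1* (SPARC) at 82.6 ± 11.9 TPM and the type IV collagens *let-2* and *emb-9* at 39.6 ± 9.27 and 24.2 ± 6.64 TPM (SD, n = 4). Both collagens were lowest in replicate 3, at 26.5 and 14.4 TPM. Somatic gonad genes had a median of 2.43 TPM, but the gap junction gene *inx-8* of the gonadal sheath averaged 106 ± 10.8 TPM, the filamin gene *fln-1* of the spermatheca 76.4 ± 9.98 TPM and *inx-9* 25.01 ± 3.99 TPM. The Notch ligand gene *lag-2*, made in the distal tip cell, averaged 0.531 TPM.

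Neuronal genes had a median of 1.92 TPM, and 10 of 16 were expressed. The synaptobrevin gene *snb-1* had 334, 339, 322 and 336 TPM, 76.1% of the list's TPM. The neuropeptide-processing genes *egl-21* and *egl-3* had 28.4 ± 5.45 and 21.6 ± 5.67 TPM (SD, n = 4). Genes that mark transmitters were at or below 1 TPM for acetylcholine (*unc-17* at 0.605 and *cha-1* at 0.729), for glutamate (*eat-4* at 0.447) and for GABA transport (*unc-47* at 0.190), while *unc-25*, which makes GABA, averaged 2.19 TPM. *unc-31* and *rgef-1* averaged 0.764 and 0.551 TPM. Of 148 neuropeptide genes, 106 were expressed, where 53.9% of all protein-coding genes were. Among them were 30 of 31 *flp* genes, 59 of 78 *nlp* genes and 17 of 39 insulin-like *ins* genes. *nlp-40*, a peptide released by the intestine, led with 205, 201, 179 and 200 TPM, followed by *nlp-36* with 128, 148, 135 and 122 TPM and *nlp-29*, an antimicrobial peptide of the epidermis, with 154, 189, 43.8 and 74.8 TPM.

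Other lists were each carried by few members. *sip-1* held 98.3% of the TPM of the heat shock list, whose median was 23.5 TPM. The inducible members were unlike between libraries, with 62.4, 59.0, 14.3 and 14.1 TPM for *hsp-16.2*, 43.5, 46.2, 10.5 and 8.50 TPM for *hsp-16.41*, and 37.9, 41.3, 10.1 and 12.5 TPM for *hsp-70*. Replicates 1 and 2 were thus higher than replicates 3 and 4 for each of them. The 5 *hsp-16* genes summed to 127, 121, 30.3 and 26.7 TPM. Of 264 genes with C-type lectin names, 239 are protein-coding. Of these 239, 73 were expressed, or 30.5%, against 53.9% of all protein-coding genes. *clec-87* with 3064, 2895, 2601 and 2579 TPM held 41.3% of the list. *clec-63* had 774, 733, 1134 and 963 TPM and *clec-88* 693, 676, 590 and 619 TPM. Of 72 histone genes, 31 were expressed, or 43.1%, against 53.9% of all protein-coding genes. They were led by the replacement histone H3.3 gene *his-72* with 781, 780, 704 and 651 TPM. *his-74* had 526, 502, 468 and 437 TPM and *his-35* 146, 144, 139 and 148 TPM. mRNAs of replication-dependent histones lack a poly(A) tail, and the libraries were made from mRNA with one, so the histone list does not measure those mRNAs fully.

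The mitochondrial genome gave 0.640% ± 0.121 of TPM (SD, n = 4), with 0.491%, 0.664%, 0.783% and 0.623% in replicates 1 to 4. Its 12 protein-coding genes were all expressed and had a median of 306 TPM. *COX3* had 1396, 1792, 2180 and 1662 TPM, *COX1* 1242, 1605, 1928 and 1705 TPM, and *COX2* 665, 818, 899 and 718 TPM. All 3 encode subunits of cytochrome c oxidase and were lowest in replicate 1 and highest in replicate 3. Subunits of complex I were lower, with *ND1* at 380 TPM, *ND5* at 231 TPM and *ND2*, *ND3* and *ND4L* at 8.24, 8.06 and 1.85 TPM.

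The pool was unevenly spread over the chromosomes. Chromosome I held 23.04% of TPM, II 14.4%, III 22.8%, IV 18.8%, V 14.7% and X 5.68% ± 0.285 (SD, n = 4), with 5.57%, 5.44%, 5.61% and 6.09% for X in replicates 1 to 4. The X holds 13.7% of the protein-coding genes. As large a share of X genes was expressed as of all genes, 54.1% against 53.9%, but at lower levels. The median of expressed protein-coding genes was 8.48 TPM on X, against 45.7 TPM on I and 44.7 TPM on III, and 78 X genes, or 2.86%, had at least 100 TPM. Chromosome V, with 4995 protein-coding genes the richest in genes, had 1998 of them expressed.

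Of the TPM on X, 20.4% came from the 5 vitellogenin genes there, and only *vit-5* and *vit-2* of the X genes were among the top 100. Without the vitellogenins X held 4.60%, and as CPM, with no division by length, it held 8.48%. After these came *spp-5* and *spp-14*, saposin-like genes, with 1246.5 ± 55.8 and 1203 ± 135 TPM, and *asp-3* with 1148 ± 259 TPM (SD, n = 4). No member of the germline and meiosis list or of the oocyte and eggshell list lies on X. Several somatic lists do have members there, with 9 of 30 for body wall muscle, 4 of 18 for gut digestion, 37 of 148 for neuropeptides and 31 of 178 for collagens, but the neuron list has 0 of 16.

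**Figure D5:**
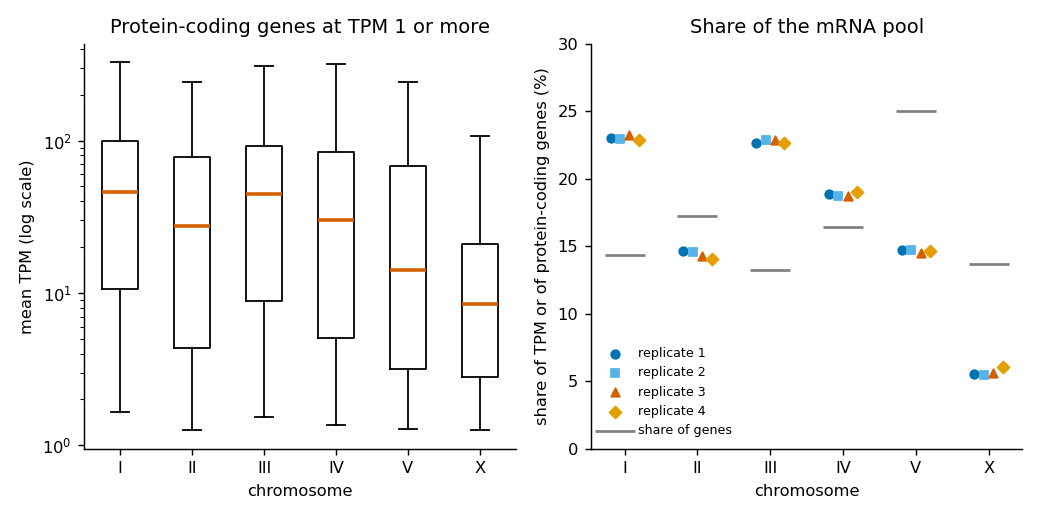
Left, mean TPM (log scale) of protein-coding genes at 1 TPM or more by chromosome, with the box from the 25th to the 75th percentile, the median in orange and whiskers at the 5th and 95th percentiles. Right, the share of TPM (%) of each chromosome in each of the 4 control libraries (points) beside its share of protein-coding genes (grey bars). X has the lowest median, 8.48 TPM, and holds 5.68% of TPM with 13.7% of the genes.

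The libraries differed from each other by more than counting error. The median CV over the 4 libraries was 20.3% for genes of 1 to 10 TPM, 7.13% for 10 to 100 TPM, 6.08% for 100 to 1000 TPM and 8.44% above that, where counting alone would give 9.38%, 2.32%, 1.18% and 0.454%. The most abundant genes were therefore not the steadiest, and depth was not what limited their precision. Of all expressed genes, 43.1% had their lowest TPM in replicate 3, and 13.3% their highest.

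Among genes of at least 50 TPM, the 5 with the highest CV differed by severalfold between libraries. The epidermal antimicrobial peptide genes *cnc-2* and *cnc-4* had 74.7, 91.8, 15.01 and 23.3 TPM and 70.6, 83.1, 18.6 and 28.7 TPM. Y39B6A.1 had 32.4, 26.6, 88.5 and 139 TPM. The acid ceramidase gene *asah-1* had 45.1, 35.2, 134 and 130 TPM, and *acs-2*, an acyl-CoA synthetase of fatty acid oxidation, had 36.3, 40.2, 111 and 134 TPM. The *cnc* genes were higher in replicates 1 and 2, like *nlp-29* and the *hsp-16* genes, and the other 3 were higher in replicates 3 and 4, like *asp-6*, *cpr-1* and *asp-1*. No label names a difference between these libraries, and what set them apart was not tested. No list's share of TPM moved by more than 1.5 times when any 1 library was left out. A mean over 4 libraries cannot rise that far when 1 is left out. It falls that far only where 1 library holds most of the sum, so this says little of differences between libraries.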

How the data were processed

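RNA-seq of whole N2 nematodes was described in the 4 control libraries. The libraries were stranded and selected for polyadenylated mRNA. The authors aligned filtered reads to WBcel235 with HISAT2 and counted fragments on RefSeq genes with featureCounts 1.6.2, as the submitters' processing notes and the methods give it. The deposited values are these counts, not normalized, beside the summed exon length of each gene. The use of strand and the treatment of reads that fit several genes are not given in the sources used here. Of 46928 identifiers, 46925 were matched to the RefSeq gene table of the same assembly, from which symbols, biotypes and chromosomes were taken.

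TPM was computed per library from the counts and lengths and averaged over the 4 libraries. Totals of 42464914 to 43055719 fragments make 3 fragments, the limit that a count of 0 allows, worth 0.0697 to 0.0706 CPM. There were 21 lists of symbols and 8 of name patterns. All members and lists were chosen with earlier results of these data known. Genes were named by a rule, which takes the 30 highest by TPM, the 3 highest of each list and its members under 1 TPM, all members of the vitellogenin, adult, L4 and dauer collagen and male lists, and the 5 of highest CV at 50 TPM or more. For long lists by name pattern, the members under 1 TPM are counted and not named, and other members were named for their role. The values of 1 gene under the rule are not reported here. With 1 group there was no test. The labels call the libraries biological replicates, and the SD is over them. Alternatives were CPM, lengths less 200 bases, totals over protein-coding nuclear genes or without vitellogenins, a minimum of 10 counts, scaling by edgeR 4.0.16 or DESeq2 1.42.0 factors, the median over libraries and leaving out each library. Only the TPM step was tested on simulated counts. These were drawn with the same lengths and formula, so recovery of the set values was nearly fixed in advance. R 4.3.3 and Python 3.11.15 were used (pandas 2.3.3, numpy 2.4.6, scipy 1.17.1, matplotlib 3.10.9).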

Additional observations from a re-analysis of the deposited data

Results flagged for a closer look

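Of 126 sets of 4 library values examined, 4 had a library far from the other 3, measured by its gap over the whole range. Chance gives about 1 in 20, so 4 flagged sets are no more than chance gives. In 3 of these sets replicate 3 was the low library. The median of the molting list was 2.18 TPM in replicate 3, against 3.24, 3.23 and 3.24 TPM in replicates 1, 2 and 4. The summed share of that list was not low there (0.00738%, 0.00697%, 0.00702% and 0.00710% in replicates 1 to 4). Of its 10 expressed members, 5 were highest in replicate 3, against 13.3% of all expressed genes. *col-19* had 106.9 TPM in replicate 3, against 171, 165 and 169 TPM, and the share of the adult cuticle collagens, which is nearly all *col-19*, was 0.0107% there, against 0.0171%, 0.0165% and 0.0170%. *rpl-41.2* had 2824 TPM in replicate 4, against 3419, 3467 and 3424 TPM in replicates 1, 2 and 3.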

How the results depend on the processing

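For 15 results, 179 values were computed under alternative settings, of which 22 moved by more than the SD between libraries or, for counts of genes, by more than 1.5 times, and 157 did not. Counts of genes within 1.5 times could still move by more than the SD. Genes at 1 TPM or more numbered 11242, against 11867 with 200 bases taken off each length, 10910 as CPM, 10784 for protein-coding nuclear genes and 11043 with a minimum of 10 counts, and 276 in place of 409 genes held 50% of TPM with the shorter lengths. As CPM with no length, 661 genes held 50% of the pool, the top 10 genes held 9.58%, the vitellogenins 6.47%, the ribosomal list 8.51%, the collagens 0.522%, the major sperm proteins 0.000137%, the mitochondrial genome 0.493% and X 8.48%. The medians on that scale were 925 for oocyte and eggshell, 163 for germline and meiosis and 5.77 for molting. With 200 bases taken off each length, the top 10 held 7.29%, the vitellogenins 1.28%, the ribosomal list 24.7%, body wall muscle 0.312% and the major sperm proteins 0.000765%, and the 3 medians were 571, 80.7 and 2.48 TPM. Without the vitellogenins the top 10 held 5.15% and X 4.60%. With a minimum of 10 counts in every library the major sperm proteins held 0.000380%. Length is part of both of the first settings by construction. No result moved beyond the spread when the scaling factors came from edgeR or DESeq2, when the median replaced the mean, or when any 1 library was left out. Such settings could hardly have moved a result. Scaling a whole library leaves a share of TPM as it was, and a median or a mean without 1 library stays near the mean of all. Many of the 157 values that did not move therefore say little of robustness. The list of ribosomal proteins with the *rplp* and *rpsa* genes was added after seeing the data. No paired analysis was possible because only control libraries were used and no groups were compared. The mitochondrial share could not be given over nuclear genes alone, nor the vitellogenin share without vitellogenins. Depth limits values under about 1 TPM, such as those of the sperm, dauer and L4 collagen genes, where a few fragments make up the value.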

Other observations

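Families of chemoreceptors, the G protein-coupled receptors of sensory neurons, were almost without transcripts in these whole-animal libraries. None of the 70 *srbc*, 67 *srd*, 54 *sre*, 61 *srg*, 61 *srt*, 109 *srw*, 101 *srx* or 63 *srz* genes reached 1 TPM, and the same held for the 56 *irld* genes. Of the *str* family 1 of 193 genes reached it, of *srh* 2 of 220 and of *sri* 1 of 61. At the other end, all 42 *mrpl* genes of the mitochondrial ribosome and 47 of 48 *rpl* genes did. Of all protein-coding genes, 53.9% reached 1 TPM. The nuclear receptors, *nhr*, with 133 of 269 genes or 49.4%, and the cytochromes P450, *cyp*, with 42 of 74 or 56.8%, were near that share. The F-box families were below it, with 64 of 170 or 37.6% for *fbxa* and 23 of 104 or 22.1% for *fbxb*.

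The steadiest genes among those of at least 50 TPM were of moderate level. *chin-1*, a gene of a chimaerin-type GTPase activator, had 73.1, 73.5, 72.9 and 72.8 TPM, with a CV of 0.385%, and *vps-32.1*, an ESCRT-III subunit gene, had 223.6, 221, 222 and 222 TPM, with a CV of 0.471%. The ATP synthase subunit gene *atp-5* had 787, 770, 781 and 775 TPM, and *sca-1*, the calcium pump of the endoplasmic reticulum, had 182, 182, 184 and 184 TPM, with CVs of 0.968% and 0.814%. Counting alone gave a median CV of 2.32% at 10 to 100 TPM and 1.18% at 100 to 1000 TPM, so values this close say nothing of steadiness beyond these 4 libraries.

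Markers of the gut did not all vary alike. *asp-6*, *cpr-1* and *asp-1* were higher in replicates 3 and 4, *lys-7* and *asp-4* were lower there, and *ctsa-1.1* was lowest in replicate 3. The esterase gene *ges-1* had 24.3, 24.6, 23.6 and 22.9 TPM, within a narrow range. The heat shock gene *hsp-70* varied while its constitutive relative *hsp-1* did not to the same degree, and the ratio of *hsp-1* to *hsp-70* was 52.7, 44.97, 222 and 173 in replicates 1 to 4.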
